A study of Mus musculus with 6 samples.

Results

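The 9 circadian clock genes Arntl, Clock, Per1, Per2, Per3, Cry1, Dbp, Tef and Nr1d2 were followed in mouse tibialis anterior, a muscle of the shin, on Affymetrix MGU74Av2 arrays. Members were taken by gene symbol from the platform annotation, which gave 11 probe sets among the 12488 on the array (9 of 8251 genes with a probe set of their own). A probe set is a group of short oligonucleotides for 1 transcript, and its signal is a linear intensity. The eccentric pool held RNA of muscles taken 48 h after 50 eccentric contractions, which stretch the muscle while it is active. The isometric pool held RNA of muscles taken 48 h after 50 isometric contractions, made at a fixed length. RNA of the control pool was from contralateral muscles, stimulated no more than a reading of isometric torque required. Each pool joined RNA of 4 animals and was hybridised to 2 arrays, named A and B, so a group is 1 biological sample and the spread between its arrays covers labelling and hybridisation, not animals. The sources used here state neither strain, sex, age nor the time of day at which muscles were taken, nor which exercised animals gave the control legs.

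The mammalian clock is a loop of transcription and repression that runs in nearly every tissue, skeletal muscle included. CLOCK and ARNTL (also called BMAL1) form a dimer that binds E-box motifs and drives the Per and Cry genes, whose proteins then block the dimer. The same dimer drives Nr1d2, which encodes the nuclear receptor REV-ERB beta, a repressor of Arntl, and the PAR bZIP factors Dbp and Tef, which bind D-box motifs in output genes. In rodent tissues the RNA of Arntl peaks at about the opposite time of day to that of Dbp and the Per genes, so a level of any of these genes depends on the hour of sampling. Per1 can in addition be induced directly by cAMP signalling and by glucocorticoids.

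RefSeq promoter windows (build GRCm38.p6, 250 bases before to 50 after a transcript start) were found for 8 of the 9 genes, 13 windows in all, and not for Per2. They were searched on both strands for the E-box CACGTG, the D-boxes TTATGTAA and TTACGTAA, the ROR element core TAGGTCA, to which REV-ERB and ROR receptors bind, and the cAMP response element TGACGTCA. The E-box is its own reverse complement, as are the second D-box and the cAMP response element. An E-box lay in 4 of the 13 windows, those of Cry1 and Tef and the upstream window of Per1, against 7.15% of all 32851 windows. A D-box lay in 1 window, that of Per3, against 1.06% of all windows, and a ROR element core in 1 of 2 windows of Arntl, against 2.61%. The cAMP response element was in 0 of 13 windows, against 1.79% of all windows. A match describes these letters only. Windows of 4 genes are shown because Nr1d2 and Per1 had the widest differences once values under the floor defined below were raised to it, and because Per1, Cry1 and Per3 carry the motifs of the loop. Capitals mark the motifs.
Per1, E-box 166 bases before the start, chr11:69098699-69098998, plus strand: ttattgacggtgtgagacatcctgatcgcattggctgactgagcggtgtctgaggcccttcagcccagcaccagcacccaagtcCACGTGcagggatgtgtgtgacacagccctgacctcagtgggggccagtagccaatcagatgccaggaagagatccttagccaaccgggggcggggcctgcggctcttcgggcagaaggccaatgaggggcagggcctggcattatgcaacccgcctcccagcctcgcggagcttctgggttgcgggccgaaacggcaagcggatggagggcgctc
Cry1, E-box 60 bases before the start, chr10:85185005-85185304, minus strand: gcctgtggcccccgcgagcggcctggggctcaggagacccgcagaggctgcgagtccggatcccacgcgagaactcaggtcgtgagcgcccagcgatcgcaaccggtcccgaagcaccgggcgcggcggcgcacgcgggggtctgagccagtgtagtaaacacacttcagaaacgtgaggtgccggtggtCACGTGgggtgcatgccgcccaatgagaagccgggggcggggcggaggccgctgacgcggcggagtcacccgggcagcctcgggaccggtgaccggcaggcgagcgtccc
Per3, D-boxes 205 and 158 bases before the start, chr4:151044616-151044915, minus strand: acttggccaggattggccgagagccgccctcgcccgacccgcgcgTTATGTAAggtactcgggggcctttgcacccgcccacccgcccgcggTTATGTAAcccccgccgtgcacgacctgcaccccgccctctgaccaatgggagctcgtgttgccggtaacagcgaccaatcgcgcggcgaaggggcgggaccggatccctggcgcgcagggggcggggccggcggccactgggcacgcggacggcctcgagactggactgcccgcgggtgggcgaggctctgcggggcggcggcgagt
Nr1d2, with none of these motifs, chr14:18239057-18239356, minus strand: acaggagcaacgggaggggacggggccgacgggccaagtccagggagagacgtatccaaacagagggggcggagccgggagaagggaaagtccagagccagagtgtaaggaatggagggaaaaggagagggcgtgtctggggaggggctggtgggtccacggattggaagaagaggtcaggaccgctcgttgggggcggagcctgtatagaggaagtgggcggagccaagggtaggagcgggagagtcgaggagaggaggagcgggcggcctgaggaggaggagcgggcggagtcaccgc

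The 6 arrays had median signals of 187 to 197. On each array, 59.2% to 61.2% of the probe sets exceeded 120.8, the 40th percentile over the 6 arrays, which served as a floor. A probe set counted as measured in a comparison if 1 or both pools exceeded the floor on both of their arrays. That held for 8 of the 11 clock probe sets in each comparison, and not for Per2 and 2 of the 3 probe sets of Cry1. All 8 markers of muscle fibres lay above the floor on every array, with summed signals of 168256 to 171831 in the eccentric, 165729 to 234410 in the isometric and 189047 to 227741 in the control pool. All 12 macrophage and monocyte markers were measured, and 10 were higher by at least 2-fold in the eccentric than in the control pool. Their summed signals were 25771 to 25811 in the eccentric, 14099 to 14337 in the isometric and 7747 to 8292 in the control pool, and no marker of this list was below the floor on all arrays. None of 4 endothelial and 2 adipocyte markers passed 2-fold in any comparison, and 3 of 4 T cell markers (Cd3e, Cd3g and Cd8a) lay below the floor on all arrays. The fourth, Cd4, passed 2-fold as lower in the isometric than in the control pool, at -1.36. The part of these cells in any difference below was not tested, and in such bulk RNA fewer cells of a type and less RNA per cell cannot be told apart. For beta-actin the log2 ratio of the 3' over the 5' probe set, which rises as RNA degrades, averaged 0.44 in the eccentric, 0.21 in the isometric and 0.04 in the control pool. On arrays control A and isometric B the 3' probe set of 18S rRNA had signals of 20449 and 32416, against 3797 and 2358 on their partner arrays. The eccentric arrays lay between these, at 13046 and 13926, so the signals do not tell which array of a pair is the odd one.

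Nr1d2 differed most of the clock genes between the eccentric and the control pool. Nr1d2, encoding REV-ERB beta, had signals of 548 and 460 on the eccentric arrays, 756 and 618 on the isometric arrays, and 904 and 1083 on the control arrays. The 3 pools did not overlap on these arrays, with control highest and eccentric lowest. Pool means were 504 ± 62.0 in the eccentric, 687 ± 98.0 in the isometric and 993 ± 127 in the control pool (SD, n = 2 arrays of 1 pool each). The log2 difference of the eccentric from the control pool was -0.98, a 1.97-fold difference, and the 4 pairings of an eccentric with a control array ran from -1.24 to -0.72. It thus fell just short of the 2-fold rule used for calls, which asks for a log2 difference of at least 1 in size with the same sign in all 4 pairings. Of all tested probe sets 1.19% had a difference as low or lower, a share that takes no account of Nr1d2 being the lowest of 8. The difference depended on the arrays used. Without eccentric A it was -1.11 and without control A -1.11, both past the rule, while it was -0.85 without either eccentric B or control B. The isometric pool differed from the control pool by -0.53, with pairings from -0.81 to -0.26, and the eccentric from the isometric pool by -0.45, with pairings from -0.72 to -0.17. The order of the pools in that beta-actin ratio, and in the summed macrophage and monocyte signals, was the reverse of that of Nr1d2. The same ratio for Gapdh was 0.12 and 0.13 on the eccentric and -0.05 and -0.07 on the control arrays. On the isometric arrays it was -0.07 and 0.27, which spanned both other pools. The part of RNA quality or of these cells in the difference was not tested.

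**Figure D1:**
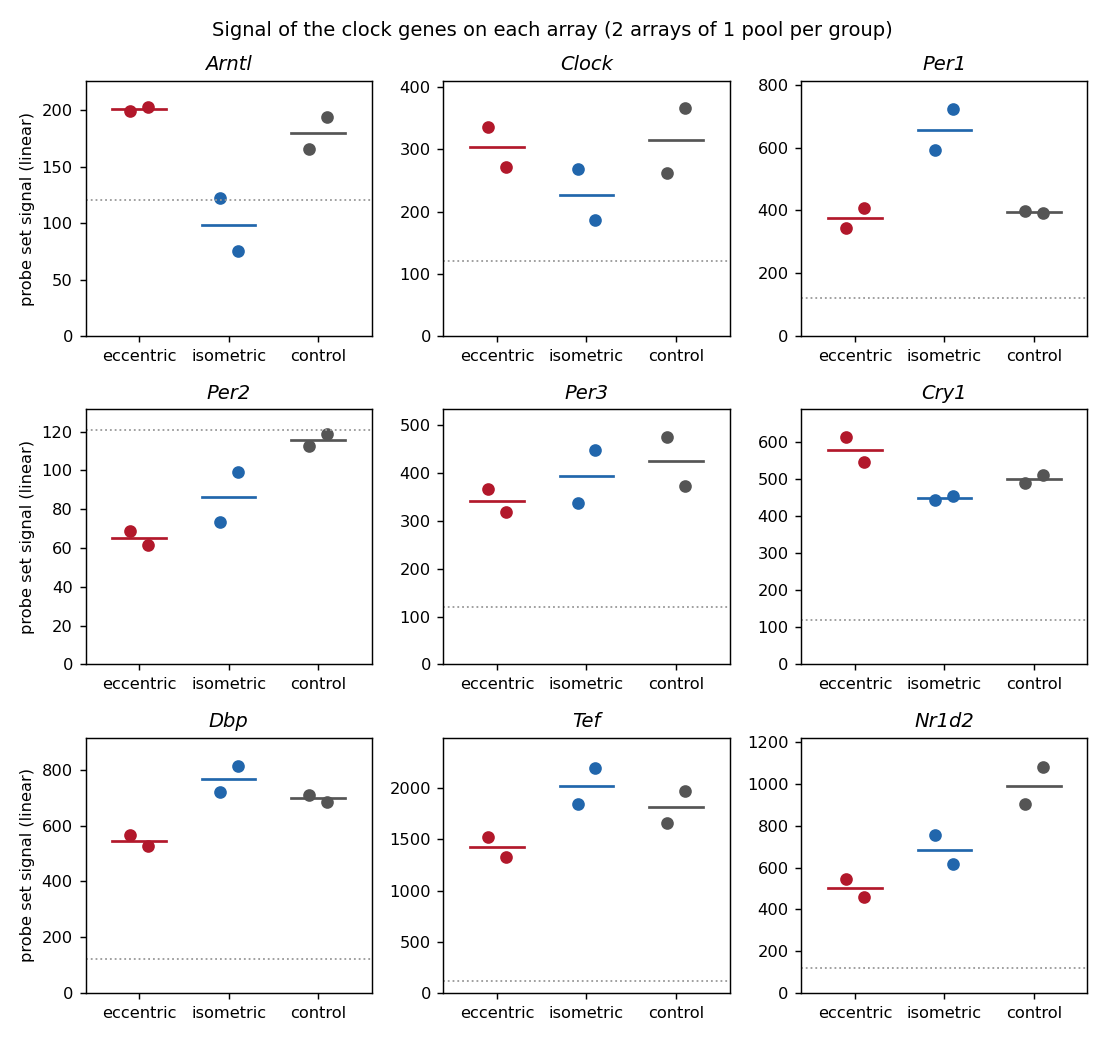
Signal of each clock gene (vertical axes, linear intensity from 0) on the 2 arrays of the eccentric, isometric and control pools (points), with the mean of each pool (short line) and the floor of 120.8 (dotted line). Cry1 is shown by the only one of its 3 probe sets above the floor. Nr1d2 is lowest on the eccentric arrays at 548 and 460, Per1 is highest on the isometric arrays at 592 and 722, and Per2 lies below the floor on all 6 arrays.

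In the activating arm, Arntl was lowest in the isometric pool. Arntl had signals of 200 and 203 on the eccentric arrays, 122 and 75.2 on the isometric arrays, and 166 and 194 on the control arrays. Its eccentric arrays lay above, and its isometric arrays below, both control arrays. With values under the floor set to it, the eccentric pool differed from the isometric pool by a log2 of 0.73 and from the control pool by 0.17, and the isometric from the control pool by -0.56. As isometric B lay under the floor, these isometric differences are smaller than those of the signals as deposited, where the eccentric pool exceeded the isometric by 1.07 and the isometric pool lay at -0.90 from the control pool. Arntl was dim, brighter on average than only 43.8% of probe sets with 1 gene. Clock, which encodes the partner of ARNTL, had 336 and 271 on the eccentric arrays, 268 and 186 on the isometric arrays, and 262 and 367 on the control arrays. Its control arrays spanned those of the eccentric pool and overlapped the isometric ones. The eccentric pool differed from the isometric pool by 0.43 for Clock, with pairings from 0.02 to 0.85, and from the control pool by -0.04. The isometric pool differed from the control pool by -0.47, with pairings from -0.98 to 0.03.

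In the repressing arm, Per1 was higher in the isometric pool than in both others. Per1, a period protein that blocks CLOCK and ARNTL, had 343 and 406 on the eccentric arrays, 592 and 722 on the isometric arrays, and 397 and 390 on the control arrays. Both isometric arrays lay above all 4 other arrays, and the eccentric arrays spanned the control arrays. The isometric pool averaged 657 ± 91.7 against 394 ± 4.7 in the control pool (SD, n = 2 arrays each), a 1.66-fold difference, with a log2 difference of 0.73 and pairings from 0.58 to 0.89. Of all tested probe sets 2.65% had a difference as high or higher. Per1 was the highest of the 8 measured clock probe sets here, which that share takes no account of. The eccentric pool differed from the isometric pool by -0.81, with pairings from -1.07 to -0.54, and from the control pool by -0.08. Without control A and isometric B together, the isometric pool differed from the control pool by 0.60 and the eccentric from the isometric pool by -0.67.

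Per3 and Cry1 showed smaller differences, and Per2 lay under the floor. Per3, the third period gene, had 366 and 319 on the eccentric arrays, 336 and 449 on the isometric arrays, and 476 and 374 on the control arrays. Its eccentric arrays lay below the control arrays, by a log2 difference of -0.30 with pairings from -0.58 to -0.03, and the isometric arrays overlapped both other pools. Per2 had signals of 68.8 and 61.4 in the eccentric, 73.4 and 99.2 in the isometric and 112 and 119 in the control pool, all under the floor, so no difference is given. Cry1, a cryptochrome that represses with the PER proteins, had 611 and 546 on the eccentric arrays, 444 and 453 on the isometric arrays, and 489 and 510 on the control arrays. The pools did not overlap for Cry1, and the differences were 0.21 for eccentric against control, -0.16 for isometric against control and 0.37 for eccentric against isometric. This probe set has the suffix _f_at, which Affymetrix gives to probe sets open to cross-hybridisation within a gene family. The other probe sets of Cry1 had signals of 1.6 to 28.8.

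The PAR bZIP genes Dbp and Tef were lowest in the eccentric pool. Dbp, a factor that carries the rhythm of the loop to D-box genes, had 566 and 527 on the eccentric arrays, 722 and 813 on the isometric arrays, and 712 and 684 on the control arrays. The 3 pools did not overlap for Dbp, although isometric A at 722 lay close to control A at 712. The eccentric pool differed by -0.35 from the control pool, with pairings from -0.43 to -0.27, and by -0.49 from the isometric pool, with pairings from -0.62 to -0.35. Tef, a relative of Dbp, had 1519 and 1328 on the eccentric arrays, 1846 and 2203 on the isometric arrays, and 1656 and 1969 on the control arrays. Its eccentric arrays lay below all 4 others, and its isometric and control arrays overlapped. The eccentric pool differed by -0.35 from the control pool and by -0.51 from the isometric pool for Tef. In each comparison Dbp and Tef had the same sign, except that the isometric pool differed from the control pool by -0.09 for Tef without control A and isometric B together.

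**Figure D2:**
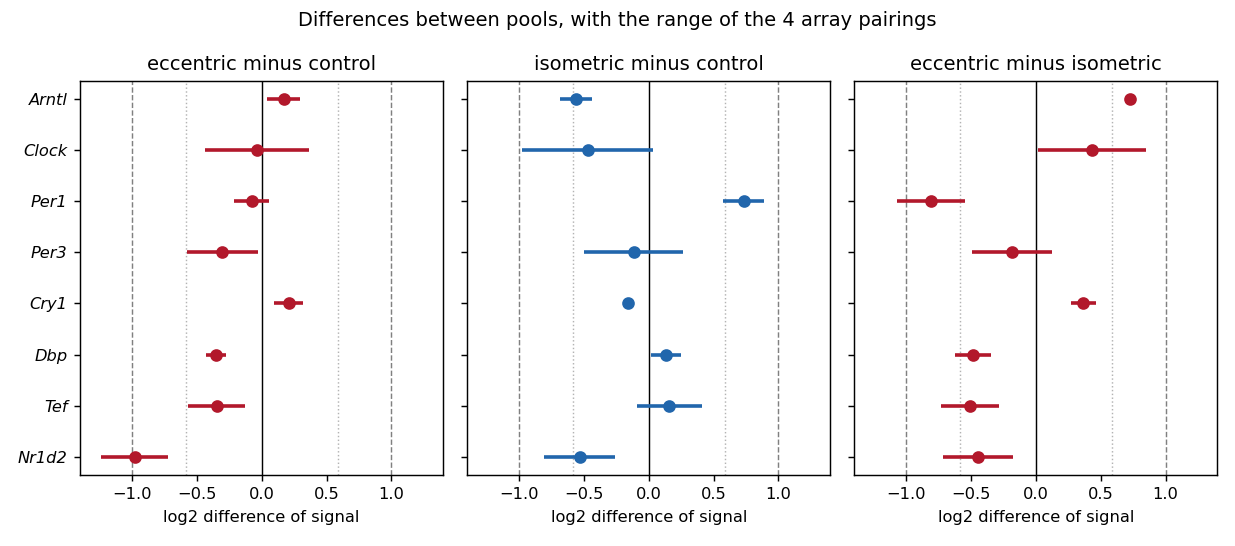
Log2 difference of signal (horizontal axes) of the 8 clock genes above the floor for eccentric minus control, isometric minus control and eccentric minus isometric, as points, with bars for the range over the 4 pairings of arrays. Dashed lines mark 2-fold and dotted lines 1.5-fold differences, and no point lies beyond a dashed line. Nr1d2 is at -0.98 in the first panel, Per1 at 0.73 in the second and -0.81 in the third. The bar of Arntl in the third panel is short because isometric B was set to the floor.

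Between the eccentric and the control pool 0 of 8 measured clock probe sets passed the 2-fold rule, where 5% of 6744 probe sets with 1 gene were higher and 1.13% lower. At 1.5-fold 1 clock gene was lower, Nr1d2, and 0 were higher, where 7.56% of all tested were lower and 11.9% higher. The arrays of the pools did not overlap for 6 of 8 clock probe sets, 2 higher (Arntl and Cry1) and 4 lower (Per3, Dbp, Tef and Nr1d2), against 30.4% and 31% of all tested. The median log2 difference of the 8 was -0.19 against -0.02 over all tested. A limma fit to the 6 arrays, a comparison of these pools and not of the conditions, gave Nr1d2 an adjusted p of 0.0348 (Benjamini-Hochberg over 6880 probe sets) and did not call the other 7. Of all 6880 it called 415 as higher and 150 as lower. With the array letter as a replicate block the limma adjusted p of Nr1d2 was 0.068, and 0 clock genes were called, where 249 of all were called as higher and 44 as lower. In limma 1 of the 8 had an unadjusted p below 0.05 with or without the block, where 25.9% of 6880 probe sets had (23.8% with the block).

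Between the isometric and the control pool 0 of 8 passed the 2-fold rule, where 0.908% of 6609 probe sets were higher and 0.363% lower. At 1.5-fold Per1 was higher, where 3.83% of all tested were, and 0 were lower, where 2.75% of all tested were. Arrays did not overlap for 5 of 8, of which Per1 and Dbp were higher and Arntl, Cry1 and Nr1d2 lower, against 18.6% and 19.2% of all tested. With all arrays of both pools required above the floor, Arntl dropped out, as its isometric B lay under it, and 4 did not overlap. The median of the 8 was -0.14 against -0.01 over all tested. limma called 0 of the 8, and 3 had an unadjusted p below 0.05 (Arntl, Per1 and Nr1d2), where 10% of 6880 probe sets had. For Arntl, isometric B was raised to the floor in this fit, which narrowed the spread of its isometric arrays.

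Between the eccentric and the isometric pool 0 of 8 passed the 2-fold rule, where 1.73% of 6653 probe sets were higher and 0.631% lower. At 1.5-fold Arntl was higher and Per1 lower, where 7.55% and 4.87% of all tested were. Arntl counted as measured here only through its eccentric arrays, as isometric B at 75.2 lay under the floor. Arrays did not overlap for 7 of 8, with Arntl, Clock and Cry1 higher and Per1, Dbp, Tef and Nr1d2 lower in the eccentric pool, against 28.2% and 24.3% of all tested, and Per3 was the exception. With all arrays of both pools required above the floor, Arntl dropped out and 6 did not overlap. The median of the 8 was -0.32 against 0.02 over all tested. limma called 0 of the 8, and 5 had an unadjusted p below 0.05 (4 with the replicate block), where 18.5% of 6880 probe sets had (16.5% with the block). The limma adjusted p without the block was 0.0798 for Arntl and 0.0857 for Per1. That of Arntl cannot be ranked beside the others, as its isometric B was raised to the floor, which narrowed the spread. All arrays of the exercised pools lay on opposite sides of both control arrays for 3 of 8 clock probe sets, those of Arntl, Cry1 and Dbp, against 3.62% of 6473 probe sets tested in both comparisons. With all arrays required above the floor this was left for Cry1 and Dbp. Both comparisons with the control pool share its arrays and are not independent of each other.

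**Figure D3:**
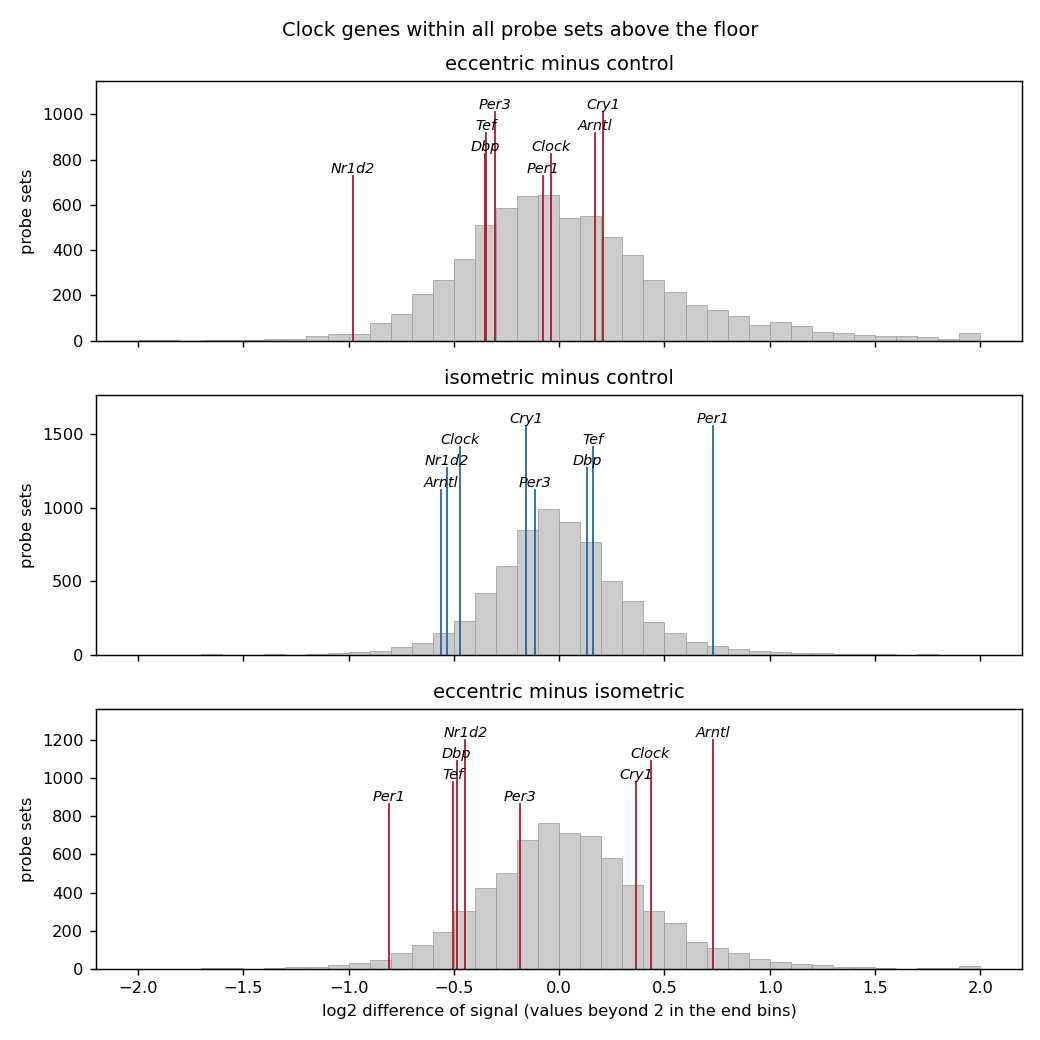
Number of probe sets (vertical axes) by log2 difference (horizontal axis, bins of 0.1, with values beyond 2 in the end bins) among all probe sets with 1 gene above the floor, for the 3 comparisons, with lines at the 8 measured clock genes. Nr1d2 stands in the lower tail for eccentric minus control and Per1 in the upper tail for isometric minus control, and the line heights carry no value.

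In a list of 36 further loop factors, kinases, ligases and cofactors, 22 were on the array, and 19 were measured in each comparison with the control pool. Of these 0 passed the 2-fold rule in either comparison, and the medians were -0.08 for eccentric against control and -0.09 for isometric against control, against -0.02 and -0.01 over all tested. At 1.5-fold 1 was higher and 2 were lower in the eccentric than in the control pool, where 11.9% of all tested were higher and 7.56% lower. The genes described next were chosen after their values were seen, apart from Ucp3. Nr1d1, encoding REV-ERB alpha and the paralog of Nr1d2, had 1305 and 1206 on the eccentric arrays, 1289 and 1282 on the isometric arrays, and 1323 and 1086 on the control arrays. All of its pools overlapped, and the eccentric pool differed from the control pool by 0.07, where Nr1d2 had -0.98. Cry2, the other cryptochrome, overlapped between all pools at 169 to 302. Nfil3, a repressor that competes with PAR bZIP factors for D-boxes, differed by -0.37 between the eccentric and the isometric pool, with pairings from -0.48 to -0.27, while its other measured probe set, open to cross-hybridisation, was at -0.19 with overlapping arrays. Npas2, a relative of Clock, lay under the floor on all arrays at 12.3 to 27.7. Past 1.5-fold the eccentric pool was lower than the control pool in Ppp1cb, a phosphatase subunit, and Hdac3, a co-repressor deacetylase that works with REV-ERB, and higher in Sfpq, an RNA-binding protein whose control arrays lay near the floor at 80.5 and 131. The isometric pool also differed from the control pool, by -0.63 for Hdac3 and -0.39 for Ppp1cb, with overlapping arrays. For Hdac3 the eccentric pool differed from the isometric pool by 0.04. For eccentric against control, Hdac3 was within 1.5-fold without eccentric A, at -0.56, or control B, at -0.48, and Ppp1cb without control B, at -0.56. For Sfpq the 1.5-fold difference rests on 1 of 5 probe sets, and the others were not measured in this comparison.

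In a list of 21 genes described elsewhere as clock output in liver or muscle, 17 were on the array and 16 were measured in the eccentric against control comparison. Each gene was taken by its brightest probe set. Of these 0 passed the 2-fold rule, where 5% of all tested were higher and 1.13% lower. Of the 16, 12 were below 0, where 52.2% of all tested were, and the median was -0.15 against -0.02. For isometric against control the median of 15 was 0.03 against -0.01 over all tested. Between the eccentric and the isometric pool 1 of 16 passed as lower, Ucp3, where 0.631% of all tested did, and the median was -0.23 against 0.02. Ucp3, a mitochondrial uncoupling protein of muscle, had 711 and 703 on the eccentric arrays, 1328 and 1661 on the isometric arrays, and 1310 and 1363 on the control arrays. Its eccentric arrays lay well below all others, at a log2 difference of -1.07 from the isometric pool (-0.91 and not called without isometric B) and -0.92 from the control pool. Alas1, the first enzyme of heme synthesis, had 2908 and 3001 on the eccentric arrays, 5067 and 6114 on the isometric arrays, and 5423 and 5067 on the control arrays. Its eccentric pool differed from the control pool by -0.83, and from the isometric pool by -0.91. Pfkfb3, which makes an activator of glycolysis, differed between the eccentric and the control pool by -0.90. At 1.5-fold these 3 genes were lower and Cdkn1a, a cell cycle inhibitor, was higher in the eccentric than in the control pool, where 7.56% of all tested were lower and 11.9% higher. Cdkn1a was within 1.5-fold without control A, at 0.58. Between the isometric and the control pool 0 of 15 output genes passed 1.5-fold, where 3.83% of all tested were higher and 2.75% lower. A dimmer probe set passed where the brightest did not for 2 genes. The probe sets of Cdkn1a differed, at 0.78 for the brighter and 1.01 for the dimmer in the eccentric against control comparison, and at 0.29 and 0.80 for isometric against control. Klf9, a Krüppel-like transcription factor, was at -0.17 by its brighter and -1.16 by its dimmer probe set for eccentric against control, and at -0.19 and -0.79 for isometric against control. The dimmer probe set of Klf9 had 355 and 357 on the eccentric arrays, 599 and 352 on the isometric arrays, and 849 and 743 on the control arrays. The dimmer probe sets of both genes thus passed 2-fold against the control pool in the eccentric comparison and 1.5-fold in the isometric one. Ucp3, Alas1 and Pfkfb3 shared with Dbp and Tef the eccentric pool as the lowest, as did other genes of this list. Over all tested probe sets the eccentric arrays lay below both control arrays for 31% and below both isometric arrays for 24.3%. These are separate shares, and the share below both other pools at once was not counted. Myod1, a myogenic factor, had 1438 and 1433 on the eccentric arrays, 1077 and 1071 on the isometric arrays, and 1087 and 1062 on the control arrays. Its eccentric arrays were thus the higher ones, by 0.42 from either pool.

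**Figure D4:**
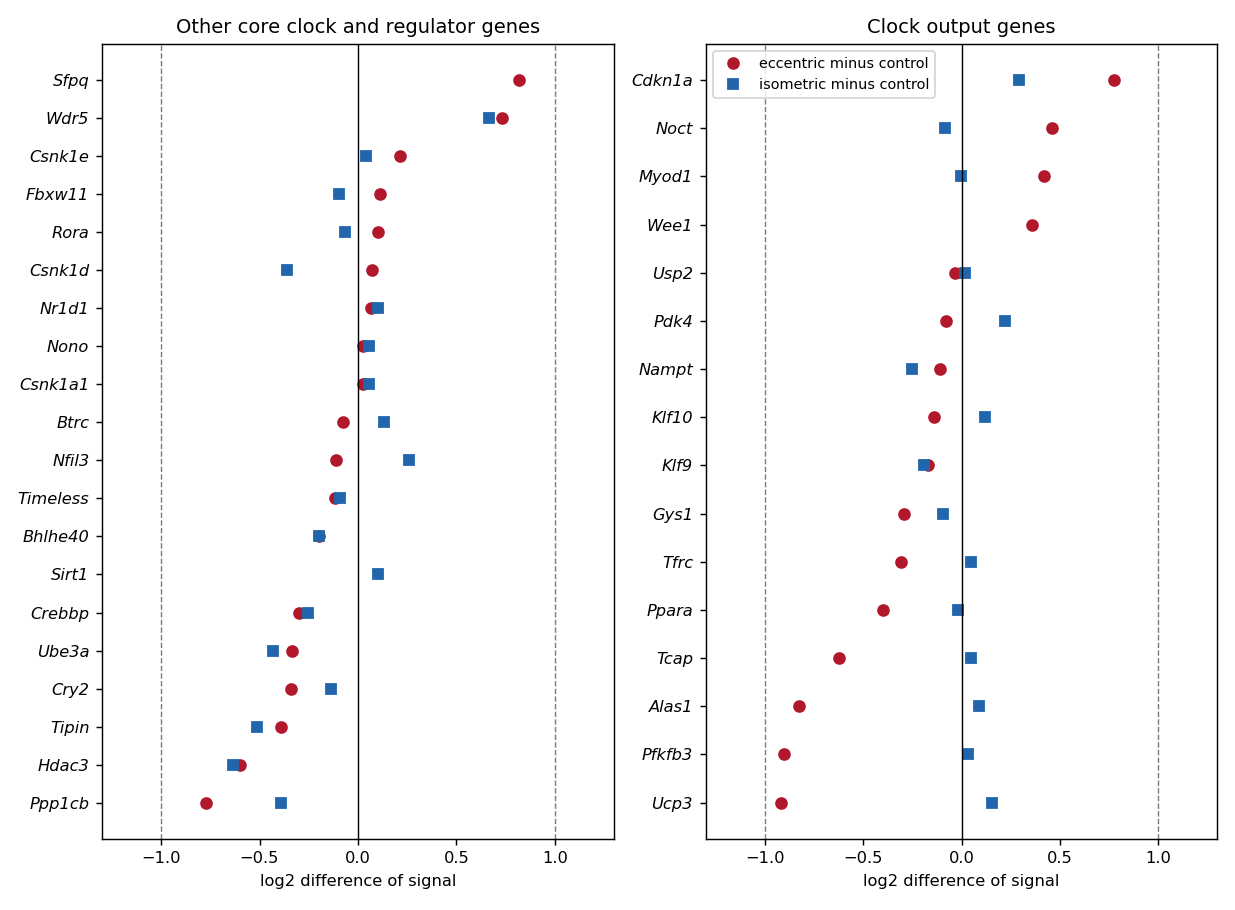
Log2 difference of signal (horizontal axes) for eccentric minus control (circles) and isometric minus control (squares) of the other core clock and regulator genes (left) and of clock output genes (right), each by its brightest probe set and only where it was above the floor on both arrays of a pool. Dashed lines mark 2-fold. No gene lies beyond them, and Ucp3, Pfkfb3 and Alas1 have circles between -0.92 and -0.83 with squares between 0.03 and 0.15.

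Nr1d2 had the widest range of pool means among clock genes above the floor on all 6 arrays, at 0.98. Among 5641 other such probe sets, those nearest to it in log2 signal over the 6 arrays, each centred on its mean, were those of Phka1, Rab10, Aldh1a1, Pkia and Kifap3, at Euclidean distances of 0.10 to 0.24. Phka1, a regulatory subunit of phosphorylase kinase in muscle, had 1261 and 1081 on the eccentric arrays, 1839 and 1544 on the isometric arrays, and 2183 and 2687 on the control arrays. Its order of pools and of arrays within each pool was the same as that of Nr1d2, which its choice by nearness over these same arrays makes likely. This likeness rests on 6 arrays of 3 pools.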

How the data were processed

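For each of 6 arrays the authors deposited a linear intensity for every probe set, all above 0 and with nearly equal trimmed means between arrays. How probes were summarised and background removed is not given in the sources used here. Of 12488 probe sets, 10833 had 1 gene in the platform annotation, 396 several and 1193 none, and 66 were Affymetrix controls. Gene IDs of all 9 members were found in the RefSeq table (GRCm38.p6), used for names. Each array was scaled to the same trimmed mean (2% removed at each end), raised to the floor where lower, and put on the log2 scale. A fold is 2 to the power of the difference of pool means on that scale. Each probe set with 1 gene was called on its own, and the other pathway genes by their brightest probe set. No p-value for the contractions can be had from 1 pool per group, and the precision is limited by 2 arrays per pool. The deposited values carry no detection calls. The members and lists were chosen with earlier results of these data known. Every member probe set was to be described. Of other pathway genes those passing the 2-fold rule were to be named, and the 5 probe sets most like the member of widest range. Alternatives were other floors, scalings, folds and filters, limma with Benjamini-Hochberg adjustment at 0.05, and leaving out arrays. The 2-fold rule and limma were tested on simulated data. The tools were limma 3.58.1 in R 4.3.3, and Python 3.11.15 with pandas 2.3.3, numpy 2.4.6, matplotlib 3.10.9 and scipy 1.17.1.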

Additional observations from a re-analysis of the deposited data

Results flagged for a closer look

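For 3 clock genes all arrays of the exercised pools lay on opposite sides of both control arrays, which held for 3.62% of 6473 probe sets tested in both comparisons. Dbp was lower in the eccentric pool, at -0.35 from the control pool, and higher in the isometric pool, at 0.13. Arntl was higher in the eccentric pool, at 0.17, and lower in the isometric pool, at -0.56. Cry1 was higher in the eccentric pool, at 0.21, and lower in the isometric pool, at -0.16. Both comparisons share the control arrays, so the difference between the 2 effects is that of the eccentric from the isometric pool. For it limma gave unadjusted p of 0.0155 for Dbp, 0.0026 for Arntl and 0.0422 for Cry1, and adjusted p of 0.156, 0.0798 and 0.248, none of which passed 0.05, over arrays of 1 pool each. The p of Arntl cannot be ranked beside the others, as its isometric B was raised to the floor, which narrowed the spread of its isometric arrays. With quantile normalization the pattern was left for Cry1 only, with median scaling for Arntl and Cry1, and with all arrays required above the floor for Cry1 and Dbp.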

How the results depend on the processing

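Of 24 log2 differences of the 8 measured clock probe sets, 19 kept their sign under all 9 alternatives that can change a difference. The exceptions were Clock and Per1 for eccentric against control, Per3 for both comparisons with the isometric pool, and Tef for isometric against control. For eccentric against control the number of clock probe sets called was 1 instead of 0 with quantile normalization, median scaling, 1.5-fold, limma without a replicate block, or without control A and isometric B together (chosen after seeing the data), each time Nr1d2. It was also 1 with no floor and no filter, by a probe set of Cry1 far under the floor, and 0 to 1 with 1 array left out. For isometric against control it was 1 at 1.5-fold (Per1) and 0 to 0 with 1 array left out. For eccentric against isometric it was 1 with the floor at the 20th percentile and 1 with none (Arntl), 2 at 1.5-fold (Arntl and Per1), and 0 to 0 with 1 array left out. By genes, with the brightest probe set or the mean over probe sets, it was 0 in all 3 comparisons. With the array letter as a replicate block limma called 0 clock probe sets in all 3. Differences between arrays A and B correlated over 5642 probe sets at 0.03, -0.14 and -0.04 between pools, in the order of the comparisons above. These values show no strong shift shared by a letter. They cannot tell whether arrays of the same letter were processed together.

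Over all probe sets with 1 gene, calls moved with the floor and the left-out array. They numbered 413 for eccentric against control (778 with the lower floor, 1325 with none, 1313 at 1.5-fold, 293 by limma with the block), 84 for isometric against control (358, 841, 435 and 0, 55 with all arrays required above the floor, and 107 to 250 when 1 array was left out) and 157 for eccentric against isometric (435, 868, 826 and 9, and 209 to 257). Without control A and isometric B together they were 186 for isometric against control and 244 for eccentric against isometric. limma without the block called 565, 0 and 68 (unadjusted p below 0.05 for 1781, 690 and 1275). Signals near the floor, Arntl among them, and the 2 arrays per pool limit what can be measured.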
